A study of Mus musculus with 4 samples.

Results

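Bidirectional promoters, the short stretches from which a pair of protein-coding genes is read in opposite directions, were examined for NR2F1 signal in the embryonic mouse hindbrain. NR2F1 (COUP-TFI) is an orphan nuclear receptor that binds DNA and is known for its part in patterning the nervous system. The signal came from single-cell CUT&Tag with an anti-NR2F1 antibody, in which the antibody brings the transposase Tn5 to the bound protein and each cut made in the DNA nearby (a cut site) is counted. Peaks of the 4 libraries were joined wherever they shared 1 bp, and 35809 of 263639 joined regions held a peak from every library. Of those, 983 contained the transcription start sites (TSSs) of both genes of a divergent pair, with the minus-strand TSS upstream of the plus-strand TSS and at most 1000 bp between them (GENCODE M21, mm10). The regions compared with them were the 10881 that contained TSSs of 1 protein-coding gene only, called single-gene regions here.

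The WT group was 2 libraries of E10.5 WT;Isl1MN-GFP embryos, pooled from 26 and 26 embryos. The Fam5snv/snv group was 2 libraries of E10.5 Fam5snv/snv;Isl1MN-GFP embryos, pooled from 8 and 16. Fam5snv/snv mice are homozygous for a knock-in of 1 single-base change, found in a family with hereditary congenital facial paresis, in a regulatory element of *Gata2*. All embryos of both groups carried Isl1MN-GFP, which labels motor neurons. Rhombomere 4 and adjacent tissue was dissected and sorted for GFP, and the last cells collected came through a gate that let GFP-negative cells pass, so the barcodes can include cells other than motor neurons. The library labels name replicates without saying more of how their pools were separated, and p-values here measure the spread between libraries. No library with a control antibody was analysed here, so signal is given with no background of that kind.

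The libraries held 1377 to 2740 barcodes. WT replicates 1 and 2 had 3083946 and 3580517 cut sites, with 879 and 1867 in the median barcode. Fam5snv/snv replicates 1 and 2 had 8967987 and 10341894 cut sites, with 2693.5 and 2984 in the median barcode. Depth was thus lower in both WT libraries and cannot be told apart from genotype. WT replicate 1 stood apart, with 42168 peaks covering 31.0 Mb, against 137996 to 170993 peaks covering 93.1 to 143 Mb in the other libraries. Any pair of libraries shared 3 to 12 barcodes, at most 0.799% of the smaller one. Of the markers of the tissue, the motor neuron genes *Isl1*, *Hoxb1* and *Chat* had a promoter region with a peak in every library, with 22.4 to 32.4, 24.3 to 43.9 and 54.2 to 80.9 CPM (cut sites relative to the library's total in tested regions, scaled by TMM), and *Mnx1* had none. The endothelial genes *Sox18* and *Erg* had 53.5 to 88.6 and 19.2 to 26.9 CPM, and *Cdh5* had no region with a peak in every library. The regions of *Chat* and *Sox18* also held TSSs of other coding genes, so their signal is not of these genes alone. The blood gene *Tal1* had 16.5 to 34.5 CPM. The neural crest gene *Foxd3* (1.05 to 27.8 CPM) and the mesenchymal gene *Twist1* (3.15 to 28.1 CPM) were lowest in WT replicate 1, and *Lyl1*, *Gata1*, *Sox10* and *Prrx1* had no such region.

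Divergent pairs are a common arrangement in mammalian genomes. Both genes share 1 nucleosome-depleted, usually CpG-rich stretch, and housekeeping genes of DNA repair, mitochondria and RNA processing are known to be frequent among them. Such promoters typically lack a TATA box and are known for binding sites of general activators such as ETS factors, NF-Y, NRF1, YY1 and Sp factors. COUP-TFs bind the core AGGTCA, best known as a direct repeat of it.

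The stretches between the TSSs of 7 named pairs are shown because they span the range of the data, from the strongest regions to the pairs with the smallest p between genotypes, and because each lies outside every annotated exon. They are mm10 plus-strand sequence (GRCm38.p6 of RefSeq), written 5′ to 3′, and run from the base after the minus-strand TSS to the base before the plus-strand TSS. Capitals mark, on either strand, the cores searched, which were the COUP-TF core AGGTCA, the ETS core CCGGAAGT, the NF-Y box CCAAT, the NRF1 core GCATGCGC, the YY1 core AAGATGGCG, the Sp core GGGCGG and the TATA box TATAAA. Where matches overlap they form 1 run of capitals. The stretches lie at chr5:120612590-120612738 (*Rita1*/*Ddx54*), chr1:74505807-74506057 (*Usp37*/*Cnot9*), chr17:56717686-56717766 (*Vmac*/*Ndufa11*), chr4:116075072-116075268 (*Uqcrh*/*Lrrc41*), chr12:108179315-108179578 (*Setd3*/*Ccnk*), chr8:109565862-109565891 (*Dhx38*/*Txnl4b*) and chr13:22042945-22043213 (*Hist1h2ag*/*Hist1h2bj*).
Rita1/Ddx54: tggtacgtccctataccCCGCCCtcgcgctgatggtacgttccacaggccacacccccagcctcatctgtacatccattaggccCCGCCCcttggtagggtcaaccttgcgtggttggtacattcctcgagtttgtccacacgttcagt
Usp37/Cnot9: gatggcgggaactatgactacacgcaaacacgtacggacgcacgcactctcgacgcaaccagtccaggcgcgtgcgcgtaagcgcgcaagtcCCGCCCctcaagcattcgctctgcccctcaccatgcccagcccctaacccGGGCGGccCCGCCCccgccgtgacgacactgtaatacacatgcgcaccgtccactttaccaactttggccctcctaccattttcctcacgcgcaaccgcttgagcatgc
Vmac/Ndufa11: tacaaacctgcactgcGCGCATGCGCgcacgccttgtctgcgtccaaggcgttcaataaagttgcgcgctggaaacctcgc
Uqcrh/Lrrc41: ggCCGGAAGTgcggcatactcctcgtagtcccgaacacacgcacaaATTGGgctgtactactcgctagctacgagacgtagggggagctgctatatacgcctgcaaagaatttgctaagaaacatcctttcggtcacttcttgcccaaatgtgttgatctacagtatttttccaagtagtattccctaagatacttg
Setd3/Ccnk: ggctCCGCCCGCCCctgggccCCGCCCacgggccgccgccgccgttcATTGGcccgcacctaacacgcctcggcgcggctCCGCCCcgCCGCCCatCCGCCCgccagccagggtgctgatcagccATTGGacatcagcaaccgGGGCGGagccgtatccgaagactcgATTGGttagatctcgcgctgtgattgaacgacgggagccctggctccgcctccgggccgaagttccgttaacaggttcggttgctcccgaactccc
Dhx38/Txnl4b: cgtcacttcctgtcgctggcggccagtgca
Hist1h2ag/Hist1h2bj: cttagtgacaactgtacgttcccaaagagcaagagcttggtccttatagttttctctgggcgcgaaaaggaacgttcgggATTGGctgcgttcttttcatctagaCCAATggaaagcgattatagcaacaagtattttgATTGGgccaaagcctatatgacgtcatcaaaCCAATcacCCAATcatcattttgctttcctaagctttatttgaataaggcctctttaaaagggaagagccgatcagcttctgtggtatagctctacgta

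The *Vmac*/*Ndufa11* stretch holds an NRF1 core that reads on both strands, *Uqcrh*/*Lrrc41* holds an ETS core and an NF-Y box, and *Hist1h2ag*/*Hist1h2bj* holds 5 NF-Y boxes. *Setd3*/*Ccnk* holds 3 NF-Y boxes and 7 Sp cores that overlap in places, and the 30 bases between *Dhx38* and *Txnl4b* hold none of the cores. Of 67 pairs picked by fixed rules, 23 had a stretch of this kind, at most 300 bases long and free of exons. By rule, very short stretches and the pairs of 1 chromosome were left out as well. Of these 23, 12 held an Sp core, 9 an NF-Y box, 3 a TATA box, 2 an ETS core, 1 an NRF1 core, and none held the COUP-TF core AGGTCA or the YY1 core.

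Nearly every annotated divergent pair carried NR2F1 signal. Of 1097 pairs (2158 genes) within 1000 bp, 1009 (92.0%) had both TSSs in 1 region with a peak in every library, 9 had 1 TSS in such a region and 79 had none. Of the 88 pairs left out, 64 had no region of any library over both TSSs, and 3, 3 and 18 had one with peaks from 1, 2 and 3 libraries. Counted by gene, 2016 of 2158 genes of divergent pairs (93.4%) had a TSS in a region with a peak in every library, against 10710 of 19708 other protein-coding genes (54.3%). The same gap was present in each library alone. The share of genes with a peak over a TSS was 90.0% and 94.5% in WT replicates 1 and 2 and 95% and 95.7% in Fam5snv/snv replicates 1 and 2 for genes of divergent pairs, and 48.3%, 59.7%, 60.9% and 62.9% for the others. Since the genes of a pair lie within 1000 bp, 1 peak can cover both TSSs and count both genes. The counts by gene thus favour genes of pairs. The 983 regions held the 1009 pairs, since 29 regions held more than 1 pair and 3 pairs reached into 2 regions. All 983 passed the filter on low counts, and each of 20 chromosomes had between 18 and 89 of them.

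A single peak usually spanned both start sites, which the choice of regions favours, since their TSSs are close and joined peaks had to reach both. This was so in 909 of 983 regions (92.5%) in WT replicate 1, 965 (98.2%) in WT replicate 2, 968 (98.5%) in Fam5snv/snv replicate 1 and 978 (99.5%) in Fam5snv/snv replicate 2. Separate peaks over each TSS occurred once, in Fam5snv/snv replicate 2. For the 176 regions whose TSSs were more than 300 bp apart, the shares were 79.5%, 93.2%, 94.3% and 98.3% in the same order. The median peak spanning both TSSs was 1152 bp long in WT replicate 1 and 1756 to 1951 bp in the other libraries. It ran 472 bp into the minus-strand gene and 486 bp into the plus-strand gene in WT replicate 1, and 748 to 829 bp and 754 to 856 bp in the others. In single-gene regions the median peak over the TSS ran 498 bp downstream and 426 bp upstream in WT replicate 1, and 854 to 1053 bp downstream and 694 to 840 bp upstream in the others. In every library, the median reach of a bidirectional peak into either gene was less than the downstream reach of a single-gene peak.

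Some pairs were lopsided in every library. In the 908 regions with 1 peak over both TSSs in all 4 libraries, the peak reached further into the same gene in all 4 in 512 (56.4%), into the plus-strand gene in 260 and into the minus-strand gene in 252. The greatest such difference was at *Brd2*/*H2-DMa*, where *Brd2* encodes a bromodomain reader of acetylated histones and *H2-DMa* a chaperone of MHC class II loading. The peak there ran 3710 and 4595 bp into *Brd2* in the WT libraries and 5790 and 5208 bp in the Fam5snv/snv libraries, and 238 to 1431 bp into *H2-DMa*. At *Peg3*/*Usp29*, an imprinted pair expressed from the paternal allele, it ran 3225 to 3481 bp into *Peg3*, a zinc finger gene, and 182 to 648 bp into *Usp29*. At *Cdk5*/*Slc4a2* the longer side was *Slc4a2*, an anion exchanger (2257 to 6647 bp), and the shorter *Cdk5*, a kinase of postmitotic neurons (416 to 1735 bp).

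Bidirectional promoters had more signal than single-gene promoters in every library. In WT replicates 1 and 2 their median was 48.7 and 44.3 CPM and in Fam5snv/snv replicates 1 and 2 it was 39.1 and 35.8 CPM, against 28.7, 29.9, 26.5 and 25.9 CPM in single-gene regions. The ratio of medians was 1.70, 1.48, 1.47 and 1.38, or 0.59 ± 0.12 on the log2 scale (SD, n = 4 libraries), a difference larger than its spread and higher in 4 of 4 libraries (exact sign-flip permutation test, two-sided, p = 0.13, the smallest 4 libraries allow). Over all 35809 regions the median was 14.7 to 17.6 CPM. The 983 regions held 5.92%, 4.35%, 3.96% and 3.47% of each library's cut sites in 4.05%, 2.11%, 1.93% and 1.58% of its called bases. Taking the mean over the 4 libraries, 88.0% of bidirectional and 73.3% of single-gene regions lay above the median of all regions. Of all 35809 regions 983 were bidirectional, and 82 of these were among the top 1000 and 5 among the top 100.

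The difference was also present per called base. Bidirectional and single-gene regions were about equally wide (median 2165 and 2233 bp), and the called peaks in them covered 1150 and 955 bp in WT replicate 1 and 1780 to 1953 and 1680 to 2020 bp in the other libraries. Per kb of called peak the medians were 38.6, 23.2, 19.7 and 17.1 CPM per kb for bidirectional promoters and 28.1, 16.4, 13.6 and 12 CPM per kb for single-gene promoters. Those are ratios of 1.37, 1.41, 1.45 and 1.42, or 0.50 ± 0.03 on the log2 scale, higher in 4 of 4 libraries (exact sign-flip permutation test, p = 0.13, the smallest possible). The ratio of total signal was above 1 in every library in each of 6 width classes. It was 1.08 to 1.23 for regions of up to 1000 bp (22 bidirectional) and 1.57 to 1.83 for those of 3000 to 5000 bp (196 bidirectional). In regions over 5000 bp (44 bidirectional) it was 1.23 to 1.39.

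**Figure D1:**
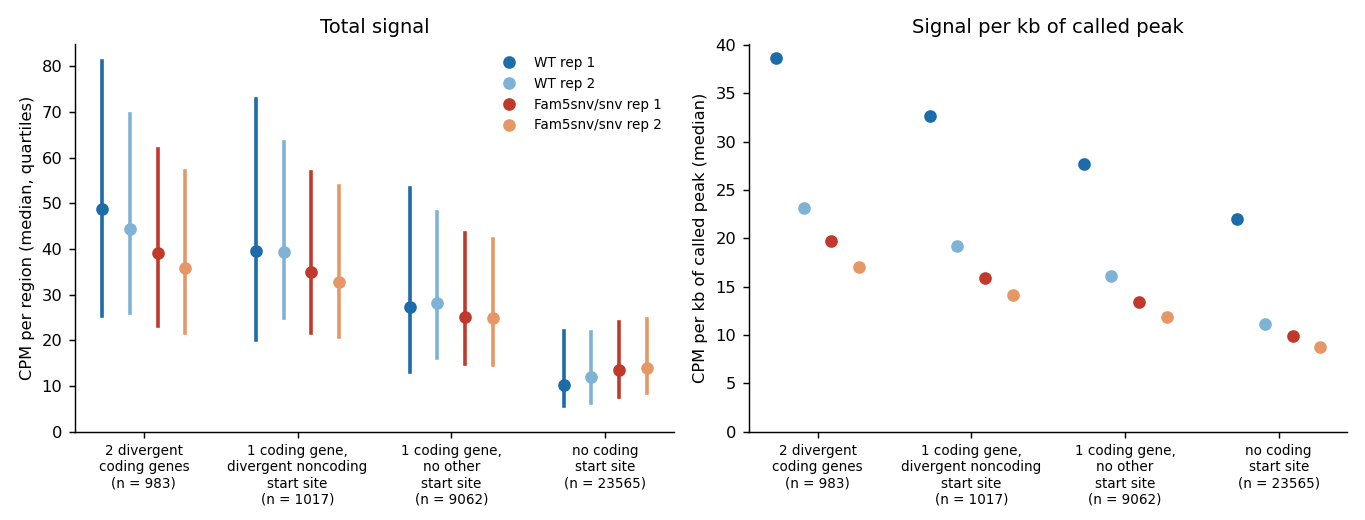
Signal per region in each library by class of region. Left, median CPM with the 25th to 75th percentile over regions as lines. Right, median CPM per kb of called peak. Colours are the libraries. Of the 4 classes drawn, in every library the regions with 2 divergent coding genes lie highest, those with 1 coding gene and a divergent noncoding start site next, then those with no other start site, and regions with no coding start site lowest.

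A further 380 regions held TSSs of several coding genes that were no divergent pair. Their medians were higher than those of bidirectional promoters in total signal (52.7, 49.6, 42.04 and 41.4 CPM) and lower per kb (32.9, 18.4, 15.8 and 14.3 CPM per kb) in every library, so high total signal was not particular to divergent pairs.

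Promoters of 1 coding gene with a divergent noncoding TSS lay between the bidirectional and the other single-gene promoters. There were 1017 such regions, with medians of 39.6, 39.4, 35.0 and 32.7 CPM. They exceeded the other single-gene regions 1.30- to 1.43-fold in total signal (0.44 ± 0.06 on the log2 scale) and 1.18- to 1.19-fold per kb (0.25 ± 0.01). The bidirectional coding promoters exceeded them 1.09- to 1.23-fold in total signal (0.19 ± 0.08) and 1.18- to 1.24-fold per kb (0.27 ± 0.03). For each of these 4 comparisons the direction was the same in 4 of 4 libraries (exact sign-flip permutation test, p = 0.13, the smallest possible, and 0.13 after Benjamini-Hochberg adjustment over the 4).

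Signal was higher where the TSSs lay further apart. The choice of regions can favour this, since joined peaks had to reach both TSSs. The distance between them was 1 to 987 bp with a median of 117 bp, and 807 of 983 (82.1%) were within 300 bp. The median of the 4-library mean was 25.7 CPM for the 175 regions with TSSs at most 50 bp apart, 36.0 CPM at 51 to 100 bp (n = 251), 43.4 CPM at 101 to 200 bp (n = 262), 56.1 CPM at 201 to 300 bp (n = 119), 57.9 CPM at 301 to 500 bp (n = 97) and 56.4 CPM at 501 to 1000 bp (n = 79). In WT replicates 1 and 2 and Fam5snv/snv replicates 1 and 2, regions with TSSs 201 to 300 bp apart exceeded those at most 50 bp apart 2.22-, 1.92-, 1.91- and 1.81-fold (0.97 ± 0.13 on the log2 scale). Per kb of called peak the excess was 1.46- to 1.59-fold (0.61 ± 0.06, exact sign-flip permutation test for each, p = 0.13, the smallest possible). Over all 983 regions the rank correlation of mean CPM and distance was 0.33, a description across regions that share the same libraries. The widest spacing class had wider regions (median 3107 bp, against 1932 to 2362 bp) and a lower level per kb than the class before it (22.9 against 32.5 CPM per kb), so its total signal was spread over more called bases.

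At the limit of 1000 bp, the pairs just inside were *Btf3l4*/*Txndc12* (987 bp, mean 89.5 CPM) and *Asphd1*/*Sez6l2* (981 bp, 68.7 CPM). The nearest pairs outside it within 1 region were *Nacc1*/*Trmt1* (1004 bp, 37.9 CPM) and *5330417C22Rik*/*1700013F07Rik* (1005 bp, 16.0 CPM).

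**Figure D2:**
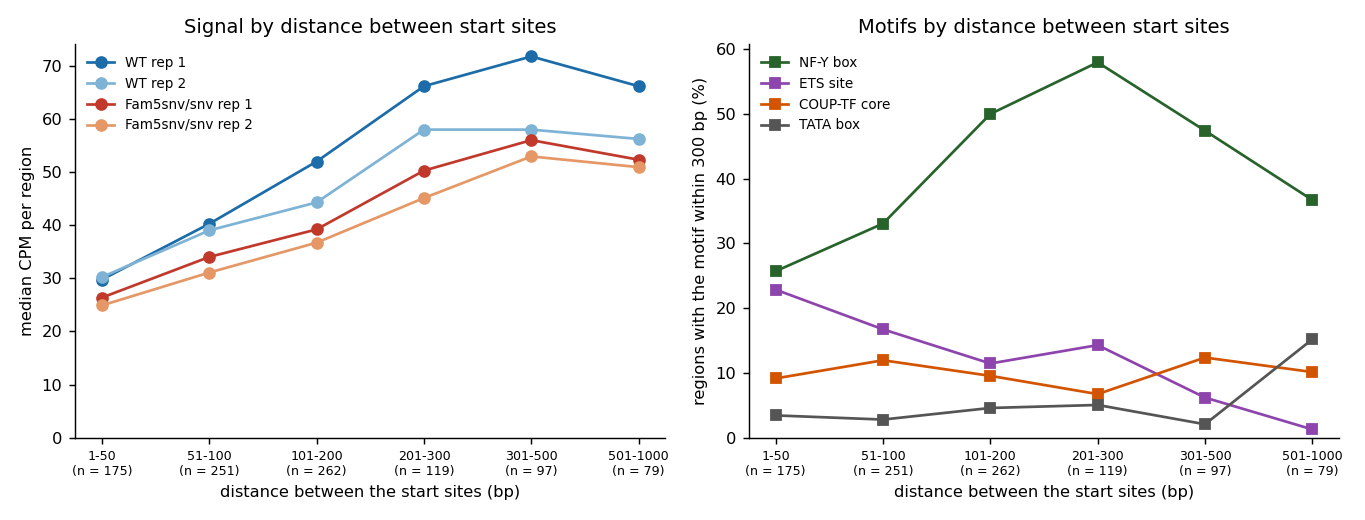
Bidirectional promoter regions by the distance between their TSSs in bp, with the number of regions in each class. Left, median CPM per region in each library, which is lowest at 1 to 50 bp and levels off from 201 bp. Right, the percentage of regions with each motif in the 300 bp centred between the TSSs: ETS sites fall from 22.9% to 1.27%, and NF-Y boxes peak at 58.0% in the 201 to 300 bp class. For TSSs more than 300 bp apart, that window holds neither TSS.

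Sequence differed in part between the classes. In the 300 bp centred between the TSSs, 13.8% of bidirectional promoters held the ETS core, against 6.57% of single-gene promoters in the 300 bp centred on the TSS. For the NF-Y box the shares were 41.0% and 31.9%, for NRF1 6.31% and 4.23%, for YY1 5.60% and 3.30%, for Sp 67.1% and 68.6% and for the TATA box 4.58% and 4.19%. The COUP-TF core was as frequent in both, at 10.1% (99 of 983 and 1098 of 10881). No bidirectional promoter and 2 single-gene promoters held it as a direct repeat with 1 base between. The median CpG ratio (observed over expected) was 0.855 and 0.814, and the median GC content 62.7% and 66.0%. A match describes letters on either strand, not a bound site, and no test was made. In the 176 bidirectional regions with TSSs more than 300 bp apart, the 300 bp window held neither TSS. In 1000 bp the ETS core stood in 19.3% and 9.17%, YY1 in 10.1% and 4.95%, and the COUP-TF core in 36.9% and 37.1%. The NF-Y box stood in 68.4% and 64.2% there, a smaller gap than in 300 bp.

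The cores varied with spacing in this fixed window. Where the TSSs lay more than 300 bp apart, the 300 bp window held neither TSS. The 301 to 500 and 501 to 1000 bp classes therefore describe the middle of the stretch and are not like the closer classes. The ETS core stood in 22.9% of the promoters with TSSs at most 50 bp apart and in 1.27% of those 501 to 1000 bp apart, and the YY1 core in 6.86% and none. The NF-Y box stood in 25.7%, 33.1%, 50%, 58.0%, 47.4% and 36.7% over the 6 classes from the closest to the widest. The TATA box stood in 2.06% to 5.04% of the classes up to 500 bp and in 15.2% of the last, where the CpG ratio also fell to 0.538 from 0.805 to 0.903 in the others. The COUP-TF core varied from 6.72% to 12.4%, without an order.

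Signal differed by core as well. The 403 bidirectional promoters with an NF-Y box had a median of 50.4 CPM and the 580 without it 38.6 CPM, 1.27- to 1.40-fold over the libraries (0.39 ± 0.06 on the log2 scale, SD over 4 libraries) and 1.22- to 1.28-fold per kb. Those with the box were higher in all 6 spacing classes, from 37.3 against 35.6 CPM at 51 to 100 bp to 76.1 against 49.8 CPM at 501 to 1000 bp. Promoters with the ETS core had 33.5 CPM against 44.1 CPM, but a fold per kb of 0.894 to 1.01. This core was most frequent at the closest spacing, where signal was lowest, and its comparison was not split by spacing. The 99 promoters with the COUP-TF core had 44.8 CPM against 42.3 CPM, a fold of 1.00 to 1.08 over the libraries and of 1.04 to 1.17 per kb (0.16 ± 0.08 on the log2 scale). Of the other cores, NRF1 and Sp went with more signal (folds of 1.18 to 1.32 and 1.16 to 1.31). YY1 and the TATA box went with less (0.75 to 0.86 and 0.81 to 0.92). Per kb the fold was 0.92 to 1.02 for YY1 and 0.79 to 0.90 for the TATA box. These comparisons were not split by spacing either. In single-gene promoters the NF-Y box also went with more signal (1.12- to 1.18-fold, and 1.17- to 1.18-fold per kb). The YY1 core went with more signal there as well (1.08- to 1.26-fold, and 1.24- to 1.28-fold per kb), unlike in bidirectional promoters. The COUP-TF core had 26.85 CPM against 27.88 CPM there, a fold of 0.929 to 1.005 (0.96 to 1.00 per kb). In the wider 1000 bp window 3 bidirectional promoters held the direct repeat, and 2 of them are given here. In WT replicates 1 and 2 and Fam5snv/snv replicates 1 and 2, *Tbcb*/*Polr2i* had 96.3, 96.0, 71.2 and 75.7 CPM, and *2700097O09Rik*/*Srp54a* 38.5, 38.0, 30.4 and 34.0 CPM.

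The regions spanned a wide range, and the libraries ranked them alike. The mean over the libraries ran from 3.47 CPM (*Asl*/*Crcp*) to 541 CPM (*Rnf5*/*Agpat1*), with 170 regions under 20 CPM and 36 at 160 CPM or more. The rank correlation of any pair of libraries over the 983 regions was 0.944 to 0.973 for CPM and 0.853 to 0.922 for CPM per kb. The median absolute log2 difference between replicates was 0.30 in WT and 0.16 in Fam5snv/snv. In 4 regions WT replicate 1 had a called peak of 8 to 89 bp but 0 cut sites in its barcodes. One of these was *Hspa1a*/*Hspa1l*, heat shock genes, with 28 cut sites in WT replicate 2 and 91 and 76 in Fam5snv/snv.

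The strongest region lay between *Rnf5*, which encodes a ubiquitin ligase of the endoplasmic reticulum membrane, and *Agpat1*, an acyltransferase of phospholipid synthesis (chr17:34602586-34607094, TSSs 572 bp apart). It had 841 and 471 CPM in WT against 442 and 408 CPM in Fam5snv/snv, and ranked 7 among all regions. *Nudt6*/*Spata5* (chr3:37417765-37421760), a Nudix hydrolase gene and an AAA ATPase gene, came next with 562, 355, 333 and 356 CPM. *Tbc1d17*/*Akt1s1*, the latter encoding the mTORC1 subunit PRAS40, had 422, 261, 255 and 235 CPM. In all 3 regions WT replicate 1 stood far above the other libraries, which lay close together.

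*Peg3*/*Usp29* had 356, 289, 237 and 237 CPM, and *Usp37*/*Cnot9*, a deubiquitinase gene and a subunit gene of the CCR4-NOT deadenylase complex, 342, 244, 209 and 193 CPM. *Rita1*/*Ddx54*, the latter an RNA helicase gene, had 302, 246, 199 and 209 CPM. In all of these both WT libraries lay above both Fam5snv/snv libraries. That order was common, found in 55.5% of bidirectional, 36.9% of single-gene and 21.4% of all regions. *Vmac*/*Ndufa11*, the latter a subunit gene of respiratory complex I, had 260, 224, 231 and 234 CPM in a region of 12470 bp, of which the peaks covered 2883 bp in WT replicate 1 and 12099 bp in Fam5snv/snv replicate 2. *Brd2*/*H2-DMa* (255, 252, 229 and 198 CPM), *Tbc1d10b*/*Mylpf* (332, 212, 205 and 182 CPM) and *Dcaf6*/*Mpc2* (299, 251, 166 and 174 CPM) completed the first 10. *Mylpf* encodes a myosin light chain of fast skeletal muscle and *Mpc2* a subunit of the mitochondrial pyruvate carrier.

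Per kb of called peak, *Nudt6*/*Spata5* led with 214, 122, 108 and 89.0 CPM per kb, before *Rnf5*/*Agpat1* (204, 115, 105 and 95.1 CPM per kb) and *Usp37*/*Cnot9* (193, 94.0, 79.4 and 63.4 CPM per kb). Pairs that entered the first 10 on this scale included *A730061H03Rik*/*Dcaf11* (157, 73.0, 67.6 and 60.1 CPM per kb), *Acin1*/*1700123O20Rik*, *Brca1*/*Nbr1* and *Tom1l2*/*Drc3*. WT replicate 1 was highest in every one of them, as it was in the class medians per kb.

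Among 18 divergent pairs that are often cited, 12 were in bidirectional regions. *Brca1*/*Nbr1*, a DNA repair gene and an autophagy receptor gene, had 177, 153, 137 and 132 CPM (107.7, 82.5, 66.7 and 70.7 CPM per kb). *Hspd1*/*Hspe1*, the mitochondrial chaperonin and its co-chaperonin, had 194, 134, 118 and 128 CPM. *Wrap53*/*Trp53*, the latter encoding the tumour suppressor p53, had 108, 94.6, 81.3 and 75.6 CPM. *Mcm4*/*Prkdc*, a replicative helicase subunit and a kinase of double-strand break repair, had 81.6, 82.7, 61.2 and 62.0 CPM, and *Atm*/*Npat*, a DNA damage kinase and a coactivator of histone genes, 87.6, 67.2, 59.9 and 54.6 CPM. In each of these the WT libraries lay above the Fam5snv/snv libraries, as in 55.5% of bidirectional and 21.4% of all regions.

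Lower on the same scale were *Mrps12*/*Sars2* (70.8, 49.9, 47.6 and 42.5 CPM), *Cdc45*/*Ufd1* (37.1, 38.0, 32.1 and 23.3 CPM), *Sirt3*/*Psmd13* (34.7, 28.5, 31.6 and 23.3 CPM) and *Hars*/*Hars2* (25.6, 17.9, 22.0 and 26.8 CPM). *Surf1*/*Surf2* had 13.3, 20.1, 20.4 and 17.2 CPM and *Psmb9*/*Tap1*, genes of antigen processing, 19.6, 21.5, 12.3 and 11.3 CPM. The genotypes overlapped at *Sirt3*/*Psmd13*, *Hars*/*Hars2* and *Surf1*/*Surf2*. *Col4a3*/*Col4a4*, collagen genes of basement membranes, was a pair under the rule (127 bp) whose shared region had a peak in 1 library only. *Ppat*/*Paics*, *Col4a1*/*Col4a2*, *Tk1*/*Afmid* and *Rpa2*/*Themis2* were no pairs under the rule, since their annotated TSSs nearest each other were not in the order required.

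**Figure D3:**
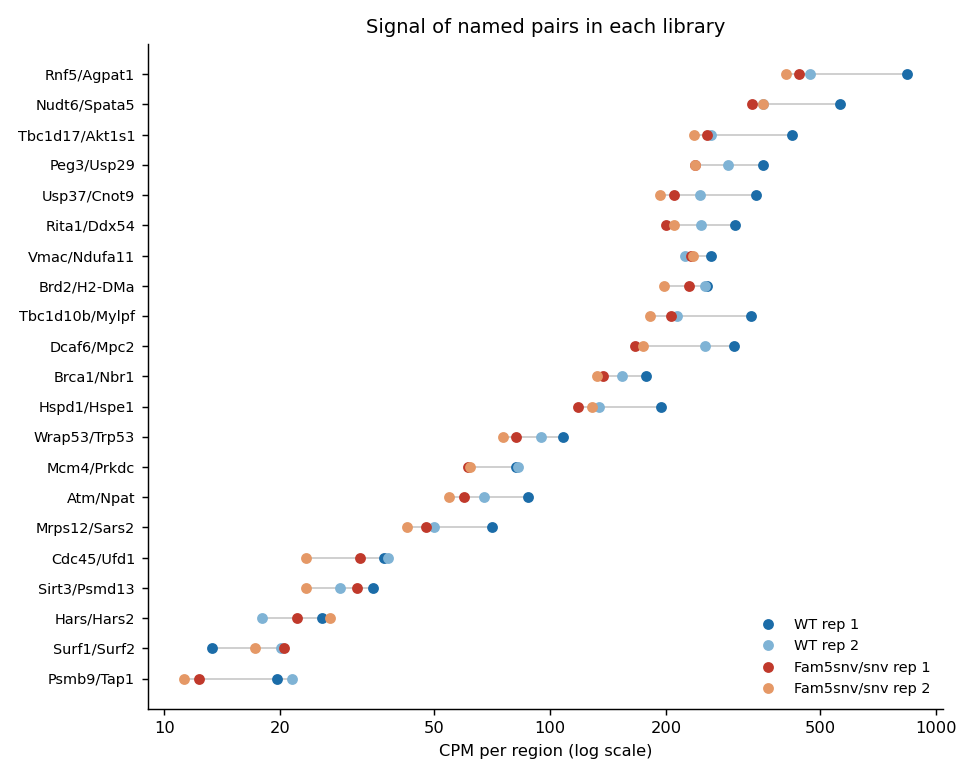
CPM per region (log scale) of the 10 bidirectional regions of highest mean CPM and of 11 often cited pairs, 1 row per pair and 1 point per library, with the grey line from the lowest to the highest library. WT replicate 1 is the highest point in each of the first 10 rows, and in 3 of the 11 cited pairs the genotypes overlap. Both WT libraries lie above both Fam5snv/snv libraries in 55.5% of all 983 bidirectional regions.

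By role, genes of basic cell functions were frequent and developmental regulators nearly absent. Of all 21842 protein-coding gene names, 1983 (9.08%) were in bidirectional regions as a member of the pair. For the mitochondrial ribosome this was 26 of 78 (33.3%), for DNA replication and repair 34 of 106 (32.1%), for the respiratory chain 26 of 83 (31.3%), for mitochondrial import 9 of 29 (31.0%) and for RNA splicing and processing 38 of 131 (29.0%). Histones followed with 21 of 73 (28.8%), RNA polymerase and its general factors with 26 of 100 (26.0%), tRNA synthetases with 9 of 38 (23.7%), the proteasome with 11 of 48 (22.9%) and the cytosolic ribosome with 12 of 79 (15.2%). Zinc finger genes reached 32 of 452 (7.08%), and homeobox and neural transcription factors 1 of 164 (0.610%), the 1 being *Sox6*. Of the latter list 110 genes had a single-gene region, with a median of 33.5 CPM and 12.8 CPM per kb. All single-gene regions had 27.8 CPM and 17.6 CPM per kb. These shares follow the annotation, since nearly all genes of a list that are in an annotated pair were also in a bidirectional region: 34 of 34 for DNA replication and repair, 26 of 26 for the mitochondrial ribosome and 21 of 27 for histones.

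**Figure D4:**
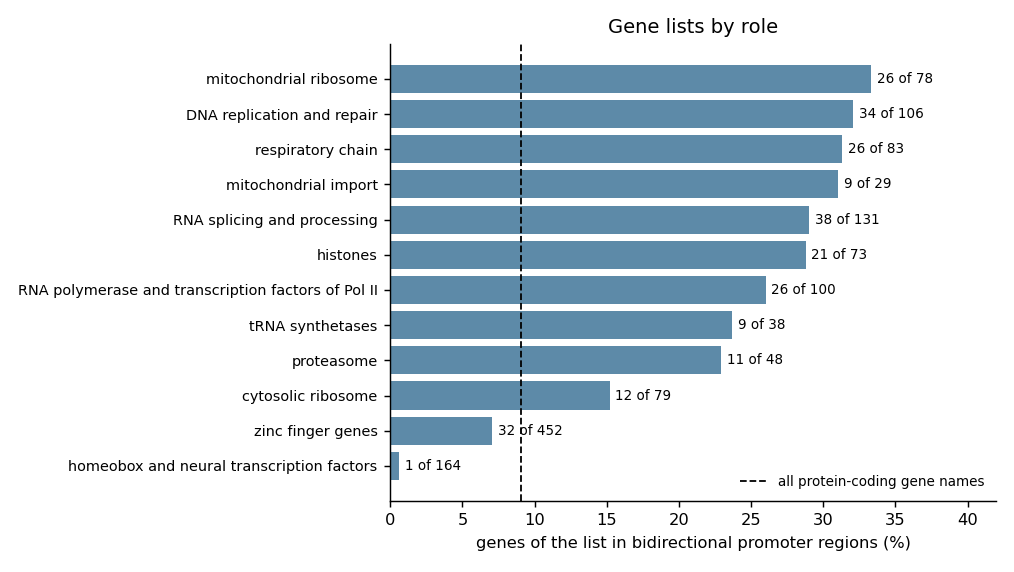
Percentage of the genes of each list that are in bidirectional promoter regions, with the number of genes beside each bar. The dashed line is the share among all protein-coding gene names (9.08%). Of the lists, 10 lie above the line, zinc finger genes just below it, and homeobox and neural transcription factors near 0.

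Within most lists the bidirectional members also had more signal than the single-gene members. The median of the 4-library mean was 50.2 CPM for 26 bidirectional and 24.4 CPM for 44 single-gene regions of respiratory chain genes, 34.2 and 20.7 CPM for the mitochondrial ribosome (25 and 41 regions), 35.5 and 23.4 CPM for DNA replication and repair (33 and 65) and 41.9 and 26.2 CPM for splicing and processing (38 and 80). In all 4 lists the ratio was above 1 in 4 of 4 libraries. The cytosolic ribosome had 32.3 and 29.7 CPM (12 and 61) but 21.3 and 23.4 CPM per kb, the proteasome 25 and 21.5 CPM (11 and 32), and the tRNA synthetases 23.7 and 26.6 CPM (8 and 28). Histone regions had 41.1 and 25.9 CPM (9 and 17), those of RNA polymerase and its general factors 34.0 and 24.9 CPM (26 and 66), of mitochondrial import 47.5 and 39.6 CPM (8 and 16) and of zinc finger genes 32.0 and 23.7 CPM (27 and 304). Bidirectional regions were the higher in 4 of 4 libraries in these lists and in the cytosolic ribosome, but not in the proteasome and the tRNA synthetases.

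Named by signal within the lists, *Uqcrh*/*Lrrc41*, with a subunit of respiratory complex III, had 133, 108, 88.6 and 91.9 CPM, and *Atp5c1*/*Kin*, with the gamma subunit of ATP synthase, 109, 90.7, 70.0 and 66.5 CPM. *Mrps18b*/*Ppp1r10* led the mitochondrial ribosome with 204, 194, 165 and 155 CPM. *Mcm7*/*Ap4m1*, with another replicative helicase subunit, had 132, 105, 90.4 and 73.3 CPM, and *Xrcc3*/*Zfyve21*, with a gene of homologous recombination, 147, 127, 119 and 102 CPM. In all 5 of these, WT lay above Fam5snv/snv, as in 55.5% of bidirectional and 21.4% of all regions. The same held for *Mrpl41*/*Pnpla7* (118, 84.1, 72.5 and 62.7 CPM) and *Tmem63b*/*Mrpl14* (103, 67.5, 59.5 and 56.1 CPM), with large subunit proteins of the mitochondrial ribosome, and for *Tomm6*/*Frs3* (86.2, 71.1, 52.4 and 53.2 CPM) and *Timm21*/*Fbxo15* (67.3, 56.3, 53.9 and 49.6 CPM), with components of the mitochondrial outer and inner membrane translocases.

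Splicing genes were led by *Ddx54*, and *Qpctl*/*Snrpd2*, with a core protein of spliceosomal snRNPs, had 199, 132, 147 and 135 CPM. *S100pbp*/*Yars*, with the tyrosyl-tRNA synthetase, had 194, 148, 134 and 99.9 CPM. *Lyrm4*/*Fars2*, with the mitochondrial phenylalanyl-tRNA synthetase, had 41.0, 41.5, 30.8 and 31.1 CPM. *Tbcb*/*Polr2i*, with a subunit of RNA polymerase II, is given above with the direct repeats. From the same list, *Serac1*/*Gtf2h5*, with a subunit of TFIIH, had 78.1, 68.9, 76.3 and 69.7 CPM, and the genotypes overlapped. *Trappc4*/*Rps25* led the cytosolic ribosome with 76.0, 55.9, 58.7 and 53.9 CPM, and *Zwilch*/*Rpl4* (65.5, 51.7, 54.0 and 58.3 CPM) and *Rpl15*/*Nkiras1* (47.6, 66.1, 51.5 and 54.5 CPM) came after it, and the genotypes overlapped in all 3. *Psme2*/*Rnf31*, with an activator of the proteasome, had 132, 87.6, 74.2 and 63.6 CPM. *Mrpl32*/*Psma2* (63.8, 58.4, 54.4 and 42.5 CPM) and *Psma7*/*Ss18l1* (54.6, 40.4, 41.4 and 42.6 CPM) hold genes of the proteasome core. *Fiz1*/*Zfp524* led the zinc finger genes with 248, 165, 167 and 157 CPM, before *Zfp91*/*Lpxn* (180, 158, 134 and 112.9 CPM) and *Dedd2*/*Zfp526* (162, 129, 104 and 104 CPM).

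Histone pairs were high in total and modest per kb. *Hist1h2ae*/*Hist1h2bg*, whose region holds 5 histone genes, had 73.2, 101, 80.8 and 81.9 CPM, but 32.3, 17.9, 15.9 and 12.9 CPM per kb. *Hist1h2ag*/*Hist1h2bj*, the stretch with 5 NF-Y boxes shown above, had 59.6, 79.5, 62.9 and 63.5 CPM, and *Hist1h2ac*/*Hist1h2bc* 42.04, 55.2, 47.0 and 42.4 CPM. The genotypes overlapped in all 3. The histone genes have near-identical copies, so reads may be shared among them and these values are uncertain. *Sox6*/*1110004F10Rik*, with a gene of neural and cartilage development, had 16.1, 8.09, 14.2 and 13.5 CPM.

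Between the genotypes no bidirectional region passed the adjusted threshold, and most had a fitted fold below 0. In the edgeR quasi-likelihood fit of 35770 regions with Benjamini-Hochberg adjustment, 0 of 983 had an adjusted p under 0.05 (percent called over all regions 0 in either direction, smallest adjusted p of a bidirectional region 0.573). At an unadjusted p under 0.05, 115 bidirectional regions (11.7%) were lower in Fam5snv/snv, where 3.37% of all regions and 6.37% of single-gene regions were, and 1 (0.102%) was higher, where 5.29% of all and 1.43% of single-gene regions were. DESeq2 called 15 lower (1.53%) and 0 higher after adjustment, where it called 0.542% of all regions lower and 1.02% higher. Among single-gene regions it called 0.910% lower and 0.202% higher. Within the lists of roles, 0 to 5 bidirectional regions of a list were lower at an unadjusted p under 0.05 by edgeR (5 of 38 for splicing and processing) and none was higher. The fitted fold was below 0 in 828 of 983, with a median of -0.31 (log2), against -0.20 in single-gene regions and 0.02 over all regions. Both Fam5snv/snv libraries lay below both WT libraries in 546 bidirectional regions (55.5%, against 21.4% of all and 36.9% of single-gene regions) and above them in 39 (3.97%, against 23.2% and 10.5%).

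The direction of these folds depends on the scale. TMM sets regions against each other, and both WT libraries had fewer cut sites per barcode than both Fam5snv/snv libraries. With libraries scaled by their number of barcodes instead (an alternative chosen after seeing the data), the median fold over all regions was 0.97 and that of bidirectional regions 0.66, with 87 of them (8.85%, against 24.3% of all and 13.2% of single-gene regions) higher and 0 lower at an unadjusted p under 0.05. The median of bidirectional regions lay 0.33 below that of all regions with TMM and 0.31 below it by barcodes. In sums over all barcodes, fewer cells of a type and less signal per cell cannot be told apart.

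Signal level, peak extent and single libraries moved with this result. Over classes of mean signal the median fold of bidirectional regions was -0.01 under 20 CPM, -0.24 at 20 to 40, -0.35 at 40 to 80, -0.42 at 80 to 160 and -0.41 from 160 CPM. Single-gene regions of the same classes had 0.02, -0.19, -0.30, -0.35 and -0.38, and regions with no coding TSS 0.29, 0.11, -0.01, -0.12 and -0.17. The called peaks covered more bases in Fam5snv/snv than in WT (median log2 ratio 0.39 in bidirectional, 0.52 in single-gene and 0.70 in all regions), and over the 983 regions this ratio had a Pearson correlation of 0.62 with the fold (Spearman 0.54), both taken from the same libraries. In the 570 bidirectional regions of which every library's peaks covered at least 50% (also chosen after seeing the data), the median fold was -0.070 and 15 were lower (2.63%, below the 3.35% of all and 3.23% of single-gene regions kept) and 2 higher at an unadjusted p under 0.05. Without WT replicate 1, the median fold was -0.23 in bidirectional and -0.17 in single-gene regions. Without WT replicate 2 these medians were -0.38 and -0.21. They were -0.36 and -0.23 without Fam5snv/snv replicate 1, and -0.26 and -0.17 without Fam5snv/snv replicate 2. The number of regions called swung widely in these fits, in which the lone library of a genotype is assumed to vary like the other pair.

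The ratio of bidirectional to single-gene signal was lower in both Fam5snv/snv libraries for total signal and higher in both per kb, and 2 libraries against 2 cannot show a difference by this test. For total signal it was 1.70 and 1.48 in WT and 1.47 and 1.38 in Fam5snv/snv, a log2 difference of -0.15, and per kb 1.37 and 1.41 against 1.45 and 1.42, a log2 difference of 0.04 (exact permutation test for each, p = 0.33, the smallest that 2 against 2 libraries allow).

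**Figure D5:**
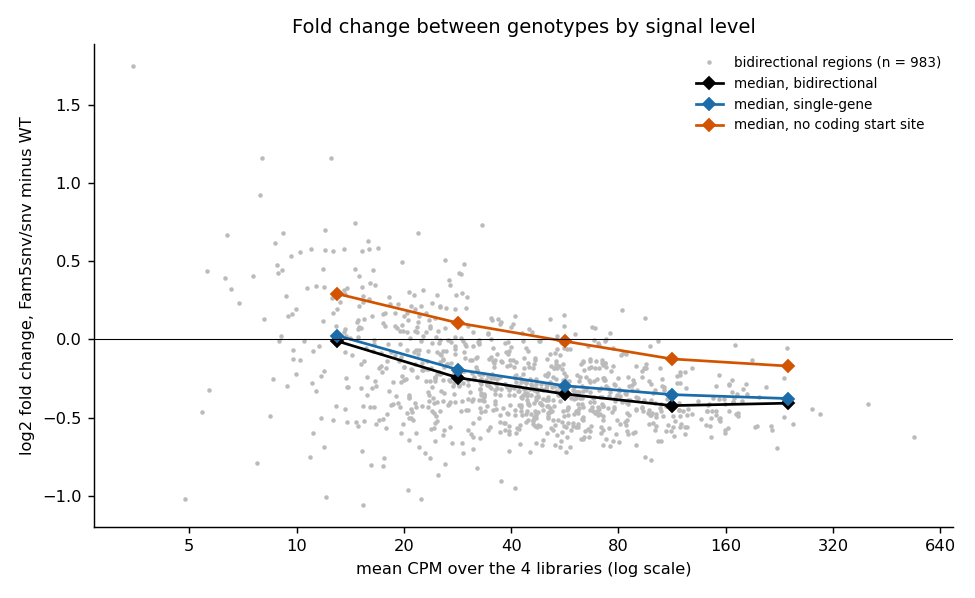
Fitted log2 fold change (Fam5snv/snv minus WT, TMM) against mean CPM over the 4 libraries (log scale). Grey points are the 983 bidirectional regions. Diamonds are medians over regions of 5 classes of mean CPM, drawn inside each class, for bidirectional, single-gene and no-TSS regions. Medians of bidirectional regions run from -0.01 under 20 CPM to -0.42 at 80 to 160 CPM, close to those of single-gene regions.

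The 5 bidirectional regions of smallest p all had lower signal in Fam5snv/snv. None passed the adjusted threshold by edgeR, and all 5 passed it by DESeq2 (adjusted p 0.00484 to 0.0393). *Xab2*/*Pet100*, a gene of splicing and transcription-coupled repair and an assembly factor gene of complex IV, had 54.0 and 53.8 CPM in WT against 29.0 and 26.8 CPM in Fam5snv/snv. The log2 fold change was -0.95 ± 0.21 (SE), with an unadjusted p of 0.00256 and an adjusted p of 0.573 by edgeR. *Dhx38*/*Txnl4b*, with a helicase of splicing, had 45.9 and 52.1 against 26.4 and 25.8 CPM (-0.91 ± 0.22). *Tyw3*/*Cryz* had 71.5 and 70.3 against 42.1 and 44.1 CPM (-0.72 ± 0.19).

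*Setd3*/*Ccnk*, a histidine methyltransferase of actin and cyclin K, had 128 and 110 against 72.9 and 68.8 CPM (-0.75 ± 0.20), and *Itfg1*/*Phkb*, with a subunit of phosphorylase kinase, 28.7 and 31.0 against 14.6 and 14.8 CPM (-1.02 ± 0.28). The genotypes did not overlap in any of the 5, and their called bases in Fam5snv/snv against WT had log2 ratios from -0.05 to 0.16, less than the median of bidirectional regions. These regions were picked by their p, so their folds are a description.

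In the other direction, *Srrd*/*Hps4* (9.46 and 12.3 against 20.6 and 15.8 CPM), *Sncg*/*Mmrn2* (12.3 and 21.5 against 23.0 and 31.1 CPM), *Usmg5*/*Pdcd11* (10.9 and 14.1 against 18.0 and 20.5 CPM) and *Entr1*/*Pmpca* (7.71 and 10.6 against 15.2 and 14.5 CPM) were among the 5 regions of smallest p, and none of these 4 had an unadjusted p under 0.05 by edgeR. Both Fam5snv/snv libraries lay above both WT libraries in each. All 4 had low signal and longer called peaks in Fam5snv/snv.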

How the data were processed

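Per the labels, anti-NR2F1 single-cell CUT&Tag was run on the 10x single-cell ATAC platform. The authors processed the reads with Cell Ranger ATAC on mm10 and deposited for each library its barcodes, the peaks called in it alone (positions with no height) and a matrix of counts, whole numbers of Tn5 cut sites by peak and by barcode. The header of each matrix gives software version 1.2.0, while the methods of the study name a later release. Counts exist only inside a library's own peaks, so longer peaks hold more. Counts were summed over barcodes, which were not taken as replicates, and over the peaks of each joined region. All deposited barcodes were kept, with no doublet calling. TSSs were those of all protein-coding transcripts in GENCODE M21, and for a region with several pairs the closest pair was used.

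Regions were tested where 2 or more libraries had 10 or more cut sites. The test of Fam5snv/snv against WT was the quasi-likelihood test of edgeR 4.0.16 (R 4.3.3), with TMM factors and without a block, and p was adjusted by Benjamini-Hochberg over 35770 regions. The median bidirectional region held 126 to 286 cut sites per library. DESeq2 1.42.0 was an alternative. Medians were compared per library and their log2 ratios with exact permutation tests over libraries. Other scripts used Python 3.11.15. The members, the lists of genes and motifs and the rules were chosen with earlier results of these data known. The regions named were the 10 of highest mean CPM, the 10 of highest CPM per kb, the 5 of smallest p in each direction, often cited pairs, up to 3 regions per list of roles and the pairs nearest 1000 bp. Regions outside this rule (a region with 0 cut sites, the lowest region, the lopsided peaks and the direct repeats) were picked after their values were seen. Some regions and genes picked by this rule are not reported here.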

Additional observations from a re-analysis of the deposited data

How the results depend on the processing

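The ratio of bidirectional to single-gene promoters kept its direction under all 12 alternatives for total signal and all 11 for signal per kb (log2 0.45 to 0.68 and 0.46 to 0.52). It moved by more than the SD between libraries with means in place of medians for total signal (0.45), and for signal per kb with gene starts only (0.46) and within the middle 50% of CpG ratios (0.46, an alternative chosen after seeing the data). The log2 difference of the ratio between genotypes stayed negative for total signal (-0.10 to -0.22) and positive per kb (0.01 to 0.08). The number of regions was 676 with gene starts only, 904 with TSSs at most 500 bp apart and 983 with 50% overlap in joining. One peak spanned both TSSs in 97.2% of regions on average and in 91.3% of those over 300 bp apart. In 1000 bp, the gap in CpG ratio was 0.0551 rather than 0.041. The gap in percentage points shrank for the NF-Y box (4.14 from 9.07) and grew for ETS (10.16 from 7.269) and YY1 (5.125 from 2.296). It turned for GC content (0.2 from -3.33), the Sp core (5.23 from -1.5), the TATA box (-3.65 from 0.387) and the direct repeat (0.195 from -0.0184). Between genotypes, 0 regions passed with edgeR, 15 with DESeq2, and 0 to 244 with 1 library left out. The 115 regions lower at an unadjusted p under 0.05 became 250 with DESeq2 (25.4%, against 6.91% of all regions), 15 where every library covered at least 50% (2.63% against 3.35%) and 0 by barcodes (both chosen after seeing the data), and 4 to 385 with 1 library left out (0.407% against 0.257% to 39.2% against 12.7%). The median log2 fold was -0.070 and 0.66 under those added alternatives. Deviations of same-numbered libraries from their genotype means had a correlation of 0.025 over regions. With 2 pairs, this cannot decide whether the replicate numbers pair the libraries, and the labels do not say. With a replicate block, 0 regions passed and 101 were lower at an unadjusted p under 0.05. WT libraries had a median of 126 and 139 cut sites per bidirectional region, against 286 and 283 in Fam5snv/snv, which limits precision in WT. The causes were not tested.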
